A study of Mus musculus with 10 samples.

Results

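The 6 libraries described here are the saline controls of a study of how ovarian follicles degenerate (atresia), a process in which granulosa cells die, whose title names HIF1, FOXO1, Bim and Bcl-XL. They were taken as the libraries labelled saline, 6 of 10 in the series. Wild-type C57B6/J female mice of 3 weeks received saline by intraperitoneal injection on 3 consecutive days, and ovaries were collected on day 4 after the first injection. Granulosa cells were cut from ovary sections by laser microdissection, and their polyadenylated RNA was read by GEO-seq, a protocol that amplifies the RNA of small captured areas. The labels give 1 batch for all libraries and do not say which animal each library came from, so the spread given below is that between captures and may be technical. The other 4 libraries came from mice given N-acetyl-L-cysteine and were not used here. The description covers the 35087 rows named by a gene symbol, of 36635 rows in each table.

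Granulosa cells surround the oocyte and line the growing follicle inside a basal lamina. Follicle-stimulating hormone drives their division and their output of estradiol and inhibin, a hormone made of the alpha subunit encoded by Inha and a beta subunit, whereas beta subunits without alpha form activin. In immature mice follicles grow in successive waves, and most are lost before ovulation, so a sheet of granulosa cells cut from a section can come from follicles of several sizes.

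The libraries held between 1331833 (saline 1) and 2473856 (saline 6) estimated reads on symbol rows, with 2055171 to 2456120 in the other 4. Levels are given as CPM or TPM. CPM is the reads of a gene scaled to the same total over symbol rows in every library, so 21332 CPM is 2.13% of reads. TPM divides by transcript length and is used where levels of related genes are compared. Places in a ranking are by CPM unless TPM is named, as are the leading members of some lists, and these favour long transcripts. A row with no read could still hold up to 3 reads' worth of RNA, or 1.21 to 2.25 CPM by library. Such limits cover counting error only, because the RNA was amplified and reads carry no molecular identifiers, so reads do not count separate molecules. In every library 10098 symbol rows reached 1 CPM, while 15137 had no read in any. Spearman's correlation between pairs of libraries, over genes with a mean of 1 CPM, ran from 0.862 to 0.951 with a median of 0.905, and saline 2 had the lowest mean correlation with the others at 0.868. For the most similar pair, saline 5 and saline 6, squared differences between counts were still 11.97 times those expected from sampling (chi-square per degree of freedom). No libraries were merged. This check bears on identical files only and does not show that the captures came from separate animals. The common biological coefficient of variation, edgeR's estimate of the spread between libraries beyond counting error, was 0.318 over 8783 genes.

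The 4 markers of granulosa cells fixed for the label check were present in each library. Inha (GRCm38 chromosome 1, 75507077 to 75510366) took more reads than any other row in all 6 libraries, with a lowest value of 8249, a median of 25655 and a highest of 29095 CPM. Saline 1 and saline 2 lay at 8249 and 10612 CPM, well apart from the other 4, which lay between 25491 and 29095. Amh, which encodes anti-Müllerian hormone of small growing follicles, ran from 95.8 through a median of 256 to 302 CPM. Here saline 5 and saline 6 were the low libraries, at 110 and 95.8 CPM, and the other 4 lay at 254 or above. Foxl2, the transcription factor that maintains granulosa identity, ran from 106 through 157 to 201 CPM and split the libraries in no such way. Fshr, the receptor for follicle-stimulating hormone, ran from 39.4 through 106 to 130 CPM and was lowest in saline 2 and saline 1. Amh lies on chromosome 10 (80805243 to 80807648), Foxl2 on chromosome 9 (98955288 to 98958543) and Fshr on chromosome 17 (88984952 to 89200675).

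Inha also stood near the top per length, at 17745 ± 7481 TPM (SD, n = 6), the second highest mean of all symbol rows. Its share of reads averaged 2.13%. Behind it by CPM came Eef1a1, the elongation factor that brings aminoacyl-tRNA to the ribosome, at 11220 ± 4010 CPM, and mt-Co1, a mitochondrially encoded subunit of cytochrome oxidase, at 6917 ± 1777 CPM (SD, n = 6). The chaperone gene Hspa8, mt-Cytb, the ribosomal protein genes Rpl13, Rplp0 and Rpl4, the polyubiquitin gene Ubb and the lysosomal protease gene Ctsl completed the first 10 places. The order was largely shared between captures: 12 genes were among the first 20 in every library, namely Inha, Eef1a1, mt-Co1, mt-Cytb, Hspa8, Hsp90ab1, Rpl4, Rpl13, Ubb, Ftl1, Serpine2 and Ptma. Of the 134 genes that entered the first 100 of any library, 72 were in the first 100 of every one.

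By class, the first 100 genes by mean CPM held 37 cytosolic ribosomal protein genes (8.21% of reads) and 7 mitochondrially encoded ones (2.36%). They also held 7 chaperone genes (2.06%) and 4 translation factor genes (1.65%). Of the genes listed for granulosa identity, Inha, Serpine2 and Gja1 were in the first 100 and together took 2.83% of reads. Serpine2 encodes a secreted inhibitor of serine proteases and Gja1 the gap junction protein connexin 43. Ranked per length by TPM, ribosomal protein genes filled 55 of the first 100 places, and 72 genes were among the first 100 on both scales.

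**Figure D1:**
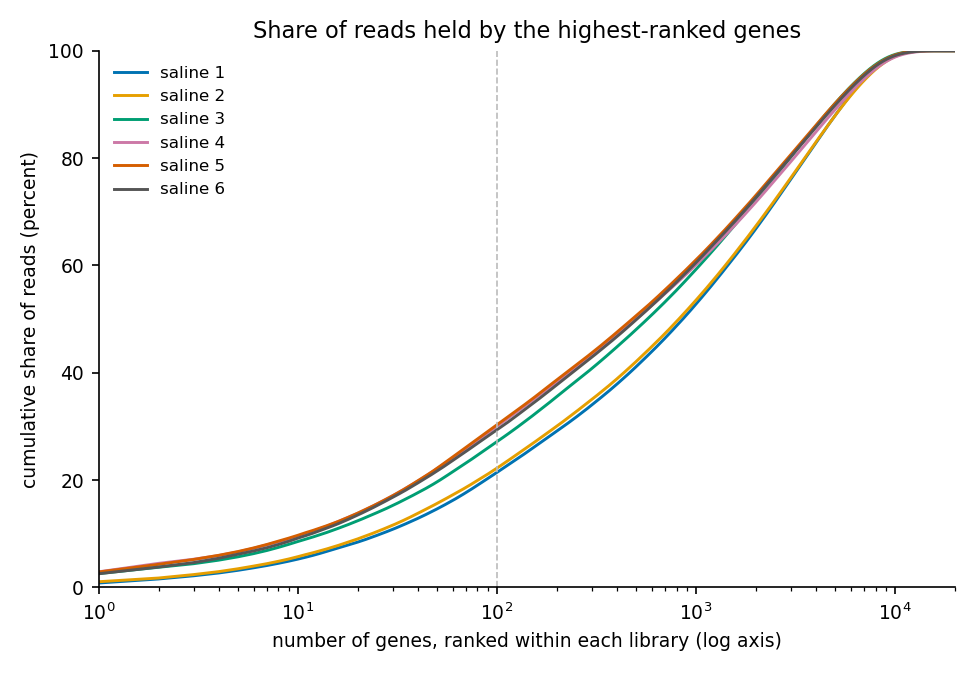
Cumulative share of reads (vertical axis, percent) against the number of genes ranked within each library (horizontal axis, log scale), 1 line per saline library, with a dashed line at 100 genes. The lines of saline 1 and saline 2 run below the others and reach 21.4% and 22.2% at 100 genes, against 27.1% to 30.3% in the other 4.

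The first 10 genes of a library held 7.99% ± 1.97 of its reads and the first 100 held 26.7% ± 3.98 (SD, n = 6). The plot of cumulative shares shows where the captures parted: saline 1 and saline 2 spread their reads over more genes from the first ranks on. Those libraries had the lowest Inha and the lowest summed level of 82 ribosomal protein genes, at 7.17% and 7.63% of reads, against 9.44% to 11.3% in saline 3 to 6. Over the mean of the 6 libraries, 636 genes made up 50 percent of all reads.

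Several high-ranking rows were copies of other genes, so how the reads were shared out bears on their values. Gm20594, the row with the highest mean TPM (18367 ± 4643, SD, n = 6), lies on GRCm38 chromosome 6 (79817916 to 79818364, plus strand). It matched the mitochondrial ribosomal RNA mt-Rnr2, for which the tables have no row, at 88.4% of 439 aligned bases. Gm10925 on chromosome 1 (24613974 to 24614651, minus strand) matched mt-Atp6, a subunit of ATP synthase, at all 678 bases. Gm29216, also on chromosome 1 (24615706 to 24616197, minus strand), matched mt-Co1 over 483 bases with 1 mismatch, T13A, counted from 1 at the 5′ end of the Gm29216 transcript. The stretches below, from the GENCODE transcripts of GRCm38 and 60 bases each, are shown because these 3 rows rank 15, 20 and 23 by CPM, and the fewer the differing bases, the less a read tells the members apart: the Gm20594 stretch differs from its partner at 8 bases, the Gm29216 stretch at 1 and the Gm10925 stretch at 0. Capitals mark the bases that differ.

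Gm20594: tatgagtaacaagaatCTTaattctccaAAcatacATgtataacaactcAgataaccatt
mt-Rnr2: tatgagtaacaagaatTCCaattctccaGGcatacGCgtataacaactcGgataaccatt
Gm10925: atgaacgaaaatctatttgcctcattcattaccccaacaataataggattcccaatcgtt
mt-Atp6: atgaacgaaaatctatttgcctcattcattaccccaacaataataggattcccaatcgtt
Gm29216: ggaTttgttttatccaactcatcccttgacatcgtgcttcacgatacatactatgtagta
mt-Co1: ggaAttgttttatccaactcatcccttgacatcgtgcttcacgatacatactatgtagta

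The estimated reads were split between Gm10925, at 2153 to 4346 CPM, and mt-Atp6, at 330 to 1568 CPM. The split differed by capture: mt-Atp6 was listed at 330 and 344 CPM in saline 3 and saline 4 and at 1194 or more in the other 4. Counted together the 2 rows gave 4256 ± 1043 CPM (SD, n = 6), and the ratio of the highest to the lowest library was 2.18, against 4.75 for mt-Atp6 alone. Rpl10-ps3, which matched the cytosolic ribosomal protein gene Rpl10 over 740 bases, was listed at under 1 read in saline 1 and at 118 to 459 CPM elsewhere. Counted together, these rows had a highest library 1.96 times the lowest, against 1.91 for Rpl10 alone. Rpl10 averaged 2616.5 CPM and Rpl10-ps3 221, so the joint ratio mostly reflects Rpl10. It does not show how reads were shared between them. Of 13 such rows among those at the head of a ranking or at an extreme of spread, 10 were identical to their partner over the aligned part, so the level of either member alone is uncertain.

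The 24 genes listed for granulosa identity were nearly all present: 23 reached 1 CPM in every library, where 28.8% of all symbol rows did (the exception was Nr0b1, a nuclear receptor that represses steroid synthesis), and 20 reached 10 TPM in every library, where 14.7% of all rows did. The inhibin and activin system came first. Beside Inha, Inhbb, the beta B subunit, averaged 247 ± 190 TPM and Inhba, the beta A subunit, 265 ± 277 TPM (SD, n = 6). Fst, which encodes the activin-binding protein follistatin, averaged 360 ± 74.2 TPM. Inhba had the widest spread of any identity gene at 50 CPM or more: 27.4 CPM in saline 1 and 74.1 in saline 2, a median of 217, and 857 and 946 in saline 6 and saline 5. Inhbb ran from 327 CPM in saline 1 through a median of 725 to 2274 in saline 6. Fst stayed within 451 to 782 CPM.

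**Figure D2:**
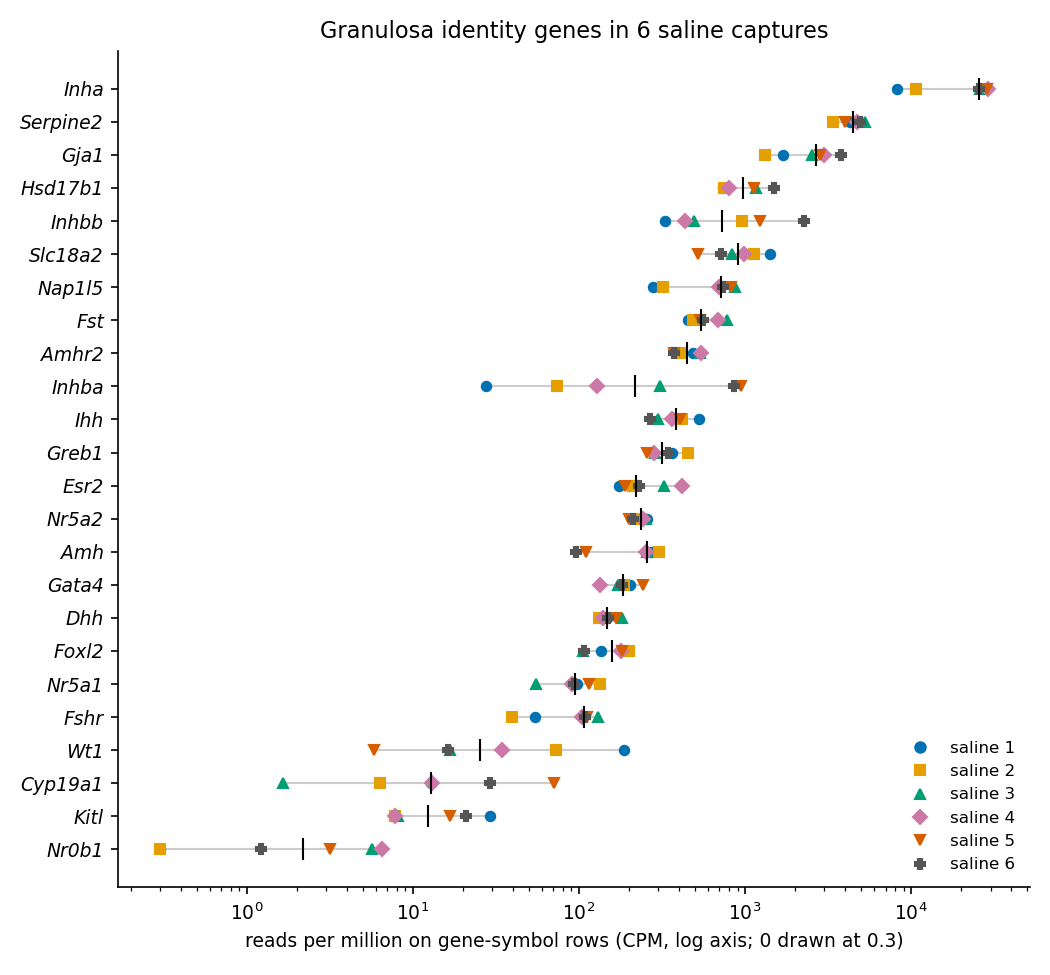
Level of 24 granulosa identity genes in CPM (horizontal axis, log scale), 1 symbol per saline library and a black bar at the median; genes are ordered by mean CPM. Inha spans 8249 to 29095 CPM, Inhba 27.4 to 946 and Wt1 5.86 to 186, while Nr5a2 and Dhh have closely set symbols.

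Among other ligands, Ihh and Dhh encode the hedgehog signals by which granulosa cells reach theca cells. Ihh averaged 187 ± 49.0 TPM and Dhh 42.2 ± 4.67 TPM (SD, n = 6), and Dhh was among the steady identity genes, with 132 to 182 CPM. Mif, a cytokine gene, had the highest level of the other ligands, at 4746 ± 752 TPM. Igf1, insulin-like growth factor 1, ran from 127 CPM in saline 5 through 198 to 444 CPM in saline 1. Igf2 had no read in any library. Kitl, the granulosa ligand for the oocyte's KIT receptor, was low at 8.63 ± 3.93 TPM, and Nppc, whose peptide holds the oocyte in meiotic arrest, averaged 48.6 ± 17.2 TPM. In the whole list of 30 ligands and binding proteins, 20 reached 1 CPM and 13 reached 10 TPM in every library. Of all symbol rows, 28.8% and 14.7% did so.

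Of 25 hormone and growth factor receptors, 21 reached 1 CPM in every library, where 28.8% of all symbol rows did. In every library 7 receptors reached 10 TPM, against 14.7% of all rows. The highest were Amhr2, the receptor for anti-Müllerian hormone, at 320 ± 85.3 TPM, and Npr2, the receptor for the Nppc peptide, at 169 ± 101 TPM (SD, n = 6). Esr2, estrogen receptor beta, averaged 91.5 ± 30.5 TPM, Igf1r 63.1 ± 29.3 TPM and Fshr 51.5 ± 19.6 TPM. Igf1r and Npr2 had their highest value in saline 1, at 490 and 523 CPM, and their lowest in saline 5, at 148 and 166 CPM.

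Among 27 ovarian transcription factors, 22 reached 1 CPM and 13 reached 10 TPM in every library. The shares of all symbol rows were 28.8% and 14.7%. Foxo1, named in the study's title and a factor held out of the nucleus by growth signals, ran from 605 through 876 to 1195 CPM, with saline 1 low and saline 4 high. Id3, an inhibitor of helix-loop-helix factors, ran from 303 through 616 to 833 CPM, with the lowest values in saline 5 and saline 6. Nr5a2, a nuclear receptor needed for ovulation, was the steadiest of the identity genes, at 200.5 to 256 CPM. Wt1, a zinc finger factor of small follicles, went the other way: 186 CPM in saline 1 and 73.0 in saline 2, a median of 25.4, and 5.86 in saline 5. The 2 captures lowest in Inhba were the 2 highest in Wt1.

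Steroid synthesis was uneven. Hsd17b1, which turns estrone into estradiol, averaged 951 ± 279 TPM and Hsd3b1, which makes progesterone and androgens from their precursors, 817 ± 448 TPM (SD, n = 6). Cyp19a1, the aromatase that makes estrogens from androgens, averaged 10.5 ± 11.3 TPM. It ran from 1.65 CPM in saline 3 through 12.9 to 70.3 in saline 5. Cyp11a1, which cleaves the cholesterol side chain, ran from 5.44 CPM in saline 4 through 37.3 to 113 in saline 5, and Star, which feeds it cholesterol, averaged 4.01 ± 3.82 TPM. Saline 5 and saline 6 were high for Hsd3b1, Cyp11a1 and Cyp19a1 alike, and the first and second of these are themselves on the list of theca markers, as are Cyp17a1 and Star. Among 10 theca markers 7 reached 1 CPM in every library, where 28.8% of all symbol rows did. The 10 summed to 2006 and 2545 CPM in saline 5 and saline 6 and to 708 to 1259 in the others, most of it from Hsd3b1. Without Hsd3b1 the theca sums were 353 and 335 CPM in saline 5 and saline 6, 291 in saline 2 and 79.3 to 181 in the other 3. Cyp17a1, the theca enzyme that makes androgens, lay at 31.5 and 31.9 CPM in those libraries and at 0 to 21.4 in the others. Insl3, the hormone gene that defines theca cells, lay at 0 to 16.1 CPM, highest in saline 2. The part of theca RNA in these values was not tested. Of 18 cholesterol synthesis and uptake genes, 17 reached 1 CPM in every library (all symbol rows: 28.8%), led by Fdps at 164 ± 24.0 TPM.

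Of 13 genes listed as induced by the ovulatory surge of luteinizing hormone, 12 have a row. Of these, 6 reached 1 CPM in every library, against 28.8% of all symbol rows, and 3 (Ptgs2, Ereg and Ptx3) had no read in any. Pgr, the progesterone receptor, Has2 and Tnfaip6, which build the expanded cumulus matrix, each had fewer than 3 reads in any library. Lhcgr, the luteinizing hormone receptor, averaged 1.68 ± 0.919 TPM (SD, n = 6). Star, Btc and Adamts1 were low, with highest values of 15.0, 16.5 and 10.7 CPM. The highest members were Rgs2, a brake on G protein signalling, at 533 through 798 to 1327 CPM, highest in saline 1 and saline 2, and Runx1 at 33.1 through 86.7 to 154 CPM. Immediate early genes, which respond within minutes to stress or handling, were low: the highest, Ier2, averaged 40.3 ± 18.6 TPM, Fos 8.30 ± 2.94 and Egr1 2.79 ± 2.98 TPM.

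The captures were checked against markers of the cells around a follicle. In bulk RNA, fewer cells of a type and less RNA per cell cannot be told apart. The granulosa identity list summed to 20380 CPM in saline 1 and 21845 in saline 2 and to 40705 to 43329 in the other 4, and this gap remained with TMM factors (17734 and 19657, against 42689 or more). Inha carried most of the gap: without it the list summed to 12131 and 11232 CPM in saline 1 and saline 2 and to 14234 to 17570 in the others. The 10 stromal fibroblast genes summed to 140, 141 and 171 CPM in saline 1, saline 3 and saline 4, and to 567, 539 and 931 in saline 2, saline 5 and saline 6. In saline 6 the collagen genes Col1a2, Col3a1 and Col1a1 gave 363, 231 and 149 CPM of this, and Dcn 60.6. The 9 smooth muscle and pericyte genes summed to 323 CPM in saline 6 and 153 in saline 5, mostly from Acta2, the smooth muscle actin, and to 12.2 in saline 3.

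**Figure D3:**
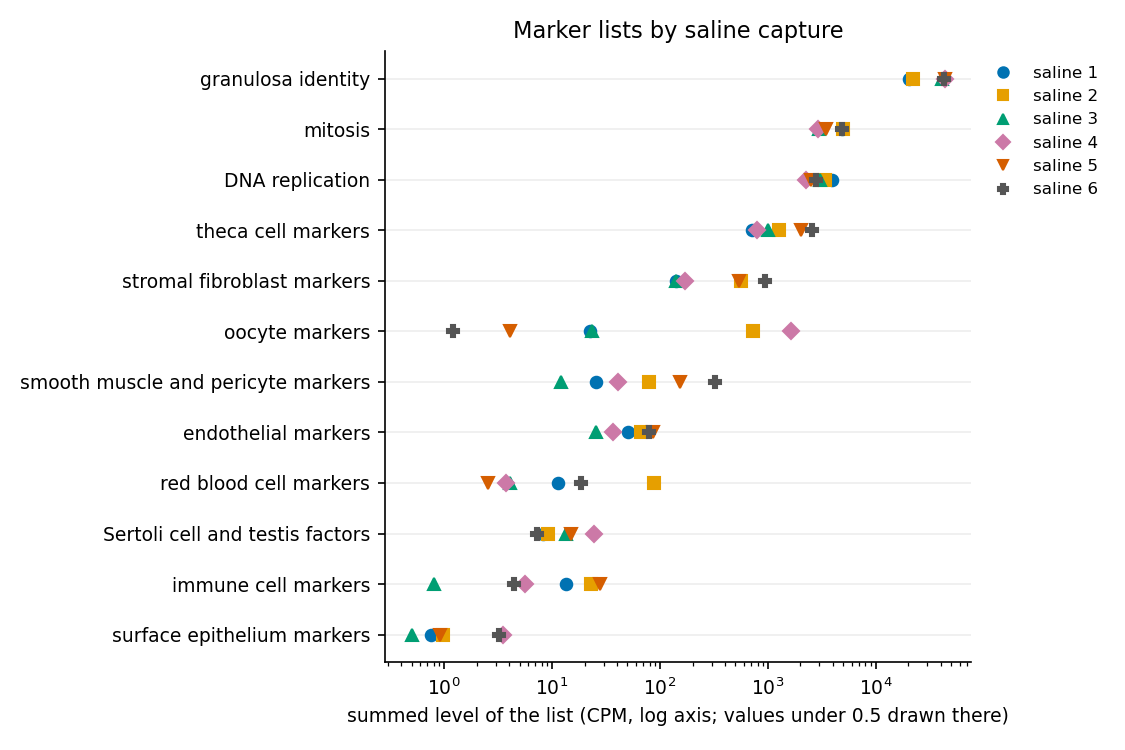
Summed CPM (horizontal axis, log scale) of 12 gene lists, 1 symbol per saline library. Granulosa identity lies within 20380 to 43329, while the oocyte list runs from 1.22 (saline 6) to 1628 (saline 4) and the stromal list from 140 to 931. A sum of 0 (surface epithelium, saline 3) is drawn at 0.5.

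Oocyte genes divided the libraries most. The 16 listed genes summed to 1628 CPM in saline 4 and 726 in saline 2, and to 1.22 to 23.6 CPM in the other 4. Gdf9, a growth factor that oocytes send to granulosa cells, was at 417 and 185 CPM in those 2 libraries and at 0 to 5.26 elsewhere. Zp3, a protein of the egg coat, was at 310 and 117 CPM there and at 0 to 4.51 elsewhere. Red cell genes summed to 88.6 CPM in saline 2 and to 18.6 or less in the others. Endothelial genes summed to 25.5 to 86.6 CPM, immune genes to 0.814 to 27.5, and surface epithelium genes to 0 to 3.53. C1qc, Msln and Krt19 had no read in any library. The 6 Sertoli genes summed to 7.28 to 24.6 CPM, highest in saline 4, where Tesc gave 21.6 CPM. Sox9 stayed at or below 6.76 CPM and Dmrt1 at or below 0.751.

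Division was visible in each capture. All 20 mitosis genes and all 20 DNA replication genes reached 1 CPM in every library, where 28.8% of all symbol rows did. Ube2c, which loads ubiquitin for mitotic exit, ran from 277 through 428 to 853 CPM. Top2a, which untangles chromosomes, ran from 196 through 459 to 614 CPM. Mki67, the usual proliferation marker, ran from 212 through 316 to 658 CPM. The mitosis genes summed to 4824, 4902 and 4875 CPM in saline 1, saline 2 and saline 6 and to 2916 to 3430 in the other 3, and the same 3 libraries were the high ones with TMM factors. For DNA replication the order depended on scaling. Saline 1 and saline 2 were highest by CPM, at 3880 and 3358, but with TMM factors saline 3 (3164) passed saline 2 (3022).

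The G1 regulators were sharply unequal. Ccnd2, the D-type cyclin through which follicle-stimulating hormone drives division, averaged 2992 ± 793 TPM and Ccnd1 0.698 ± 0.926 TPM (SD, n = 6). Ccnd2 was highest in saline 1 and saline 2, at 3695 and 3217 CPM, and lay at 1961 to 2485 in the others. On a scale of reads per kilobase of its 6330-base principal transcript Ccnd2 averaged 419 CPM per kilobase, so its level per length depends on the transcript length used. Cdk4, the kinase partner of D-type cyclins, averaged 1296 ± 93.7 TPM. The inhibitor genes Cdkn1a and Cdkn1b averaged 21.2 ± 7.35 and 3.70 ± 1.25 TPM.

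Most listed genes of energy supply and protein handling were steady between captures. Of the 4056 genes with a mean of 50 CPM or more, 2263 (55.8%) had a highest library at most 2 times the lowest, called steady here, and 137 (3.38%) had one at least 4 times the lowest, called wide. These shares were not matched for level. Many genes of the lists below had far higher means, and the part of level in their steadiness was not tested. The count of wide genes rested in part on single libraries: without saline 2 it was 89 and without saline 1 it was 94. Leaving out a library cannot raise a gene's ratio of highest to lowest, so part of such a fall is built in. Among chaperones 18 of 19 such genes were steady, among translation factors 18 of 20, among nuclear genes of the respiratory chain 26 of 30 and among glycolysis genes 11 of 13, with the glucose transporter gene Slc2a1 wide. All 6 HIF and oxygen sensing genes at this level were steady, led by Bnip3l, a mitophagy receptor, at 115 to 180 CPM. Ribosomal protein genes gave 61 steady and 1 wide of 78, the wide one being Rpl41. Aldoa, an aldolase, had 1493 to 1985 CPM and Pgk1, phosphoglycerate kinase, 254 to 313. The 13 mitochondrially encoded genes were less even, with 4 of 11 steady and mt-Atp6 wide, and summed to 15384 CPM in saline 3 and 22966 to 31266 in the others. Counted with its copy Gm10925, mt-Atp6 had a ratio of 2.18 and was not wide. The sums leave out the copies Gm10925 (mean 3234 CPM) and Gm29216 (mean 3103 CPM). Of 24 redox genes, 15 were steady and 2 were wide (Gpx3 and Gclc). Prdx2, a peroxiredoxin, had 565 to 668 CPM, while Gpx3, a secreted glutathione peroxidase, had 41.3 in saline 1 and 274 in saline 5.

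Of 21 identity genes at 50 CPM, 9 were steady and 3 wide (Inhba, Inhbb and Wt1). Of 19 mitosis genes 4 were steady and none wide. Of 9 basal lamina and matrix genes, 3 were steady and 4 wide: Sparc, a matrix glycoprotein gene, high in saline 2, saline 5 and saline 6, the collagen gene Col4a1, high in saline 5 and saline 6, and Vcan and Itga6, high in saline 1 and saline 2. Serpine2 and the laminin gene Lama1 were steady, at 3392 to 5266 and 317 to 584 CPM. Of 3 stromal genes at 50 CPM, all 3 were wide.

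**Figure D4:**
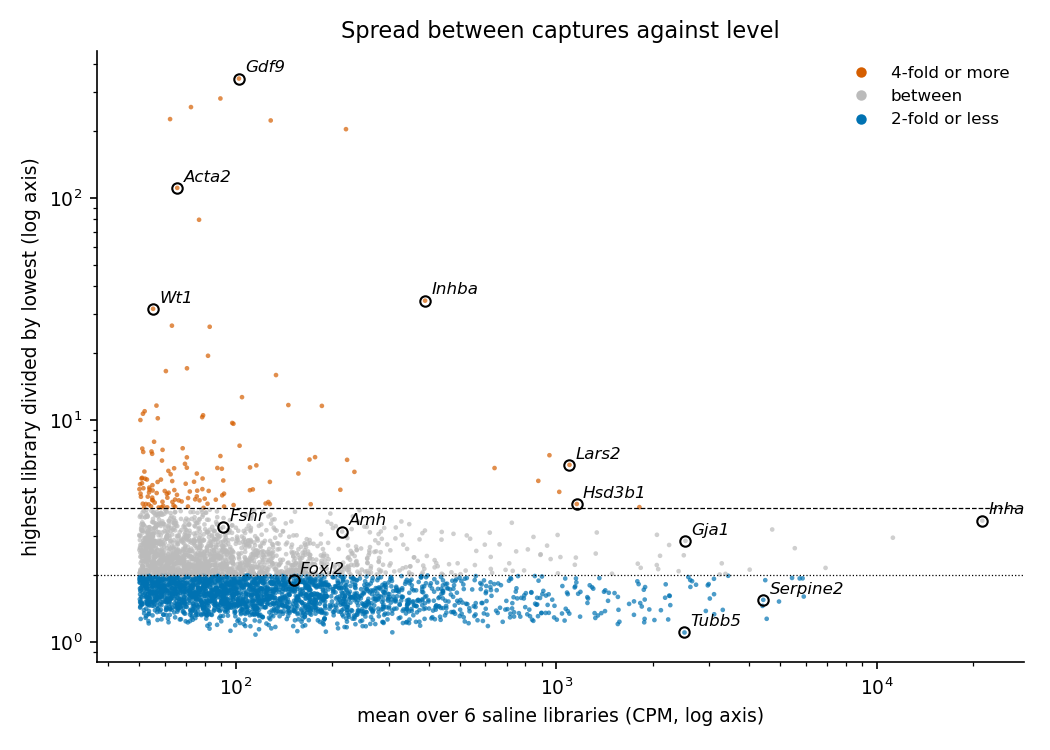
Ratio of the highest to the lowest saline library (vertical axis, log scale) against mean CPM (horizontal axis, log scale) for 4056 genes with a mean of 50 CPM or more; dashed and dotted lines mark ratios of 4 and 2, and a lowest library under 3 reads counts as 3 reads. The 137 genes at or above the upper line lie mostly at low means; Inha, at a ratio of 3.53, is the rightmost point.

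The 12 widest genes were of several kinds. Gdf9, H1foo, Zp3 and Bcl2l10 had highest libraries at least 344, 280, 256 and 226 times the lowest; their lowest libraries had no read. H1foo is the oocyte linker histone and Bcl2l10 a BCL2 relative best known from oocytes. Olfr624, an olfactory receptor row, and Hddc3 followed the same libraries, with 653 and 359 CPM in saline 4 and 89.4 and 65.2 in saline 2. Acta2 (ratio 111) peaked in saline 6. Inhba (34.5), Wt1 (31.7) and Gulo (26.6) had their high and low libraries elsewhere. Gulo, the last enzyme of vitamin C synthesis, was at 9.01 and 4.38 CPM in saline 1 and saline 2 and at 53.0 to 116 in the others. Rpl10-ps3 is a copy, as above. Gm10800 matched Gm10721 at 93.7% of 666 aligned bases, and these rows counted together still had a ratio of 29.97. Just outside and inside the threshold of 4 lay Aff2 at 3.96 and Scube1 at 4.03. Saline 1 was the highest library for 39 of the 137 wide genes and for 1176 of all 4056. For saline 6 these counts were 12 and 318. Other shares differed more: saline 5 was highest for 23 and 413, and saline 2 for 28 and 1139. As the lowest library, saline 4 counted for 15 and 924, and saline 3 for 28 and 480. All these counts are by CPM and were not made with TMM factors. Those factors were 1.149 and 1.111 for saline 1 and saline 2 and 0.931 to 0.954 for saline 3 to 6. They would lower the values of saline 1 and saline 2 beside the others, so how often a library is highest depends on scaling.

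The steadiest genes were Lamtor5, a scaffold of nutrient sensing at the lysosome, at 110 to 119 CPM (ratio 1.08), and Tubb5, a beta tubulin, at 2404 to 2661 CPM (1.11). Puf60, Med28, Nop10, Arpc5l, Srsf4, Sap30bp, Mrpl23-ps1, Glrx3, Aplp2 and Mrto4 followed, with ratios up to 1.17. They include factors of splicing (Puf60, Srsf4), transcription (Med28) and ribosome assembly (Nop10, Mrto4). Mrpl23-ps1 is identical to Mrpl23 over 540 bases, whose own ratio was 4.65. Actb, often taken as a reference, ran from 2004 to 4541 CPM (2.27), and Gapdh from 1594 to 2906 (1.82).

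For 35 pairs of related genes the order within a library was tested by an exact two-sided sign-flip permutation test on log2((TPM + 1) of the first over the second), adjusted over the 35 pairs. With 6 libraries the smallest possible p is 0.03125. This was reached by 26 pairs (adjusted p = 0.0421), and these had 1 leader in all 6 libraries. Because all 26 lay at the smallest possible p, their adjusted p depends on how many such pairs were listed. Members were chosen with earlier results of these data known, so passing is not independent of that choice. For each pair the result is the shared order in 6 libraries and the size of the ratio. Fshr exceeded Lhcgr by 4.26 ± 1.03 on the log2 scale and Esr2 exceeded Esr1 by 4.30 ± 0.47 (SD, n = 6, exact p = 0.03125 each). Gata4 exceeded Gata6 by 1.43 ± 0.30 and Nr5a2 exceeded Nr5a1 by 0.86 ± 0.54. Foxo1 exceeded Foxo3 by 3.92 ± 0.48, Igf1r exceeded Insr by 3.22 ± 0.93, and Acvr2b, an activin receptor, exceeded Acvr2a by 3.18 ± 1.42.

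Of 20 BCL2 family and caspase genes, 18 reached 1 CPM and 10 reached 10 TPM in every library, and 1 of 7 at 50 CPM was steady. The shares over all rows were 28.8% and 14.7%, and 55.8% of genes at 50 CPM were steady. Bok and Casp6, a BCL2 relative and an executioner caspase, ran from 163 through 262 to 342 CPM and from 105 through 167 to 247 CPM, both lowest in saline 5 and saline 6. Bcl2l11, which encodes the Bim of the title, ran from 14.6 through 32.0 to 51.9 CPM, low in saline 6 and saline 1 and high in saline 3, with a mean of 8.47 ± 4.05 TPM (SD, n = 6). Pmaip1 had no read in any library.

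Bax, a pore former of apoptosis, exceeded Bak1 by 6.04 ± 0.90 on the log2 scale, and Bcl2l1, which encodes the Bcl-XL of the title, exceeded Bcl2 by 3.51 ± 0.66 (SD, n = 6). Sod1 exceeded Sod2 by 4.51 ± 0.43, Gpx4 exceeded Gpx1 by 0.61 ± 0.28, and Slc2a1, a glucose transporter, exceeded Slc2a3 by 4.15 ± 1.13. Vegfb exceeded Vegfa in all 6 libraries by TPM, at a log2 ratio of Vegfa over Vegfb of -2.35 ± 1.09. Per kilobase of the principal transcript this ratio was -0.46, and the pair no longer passed (adjusted p = 0.464, exact permutation test).

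**Figure D5:**
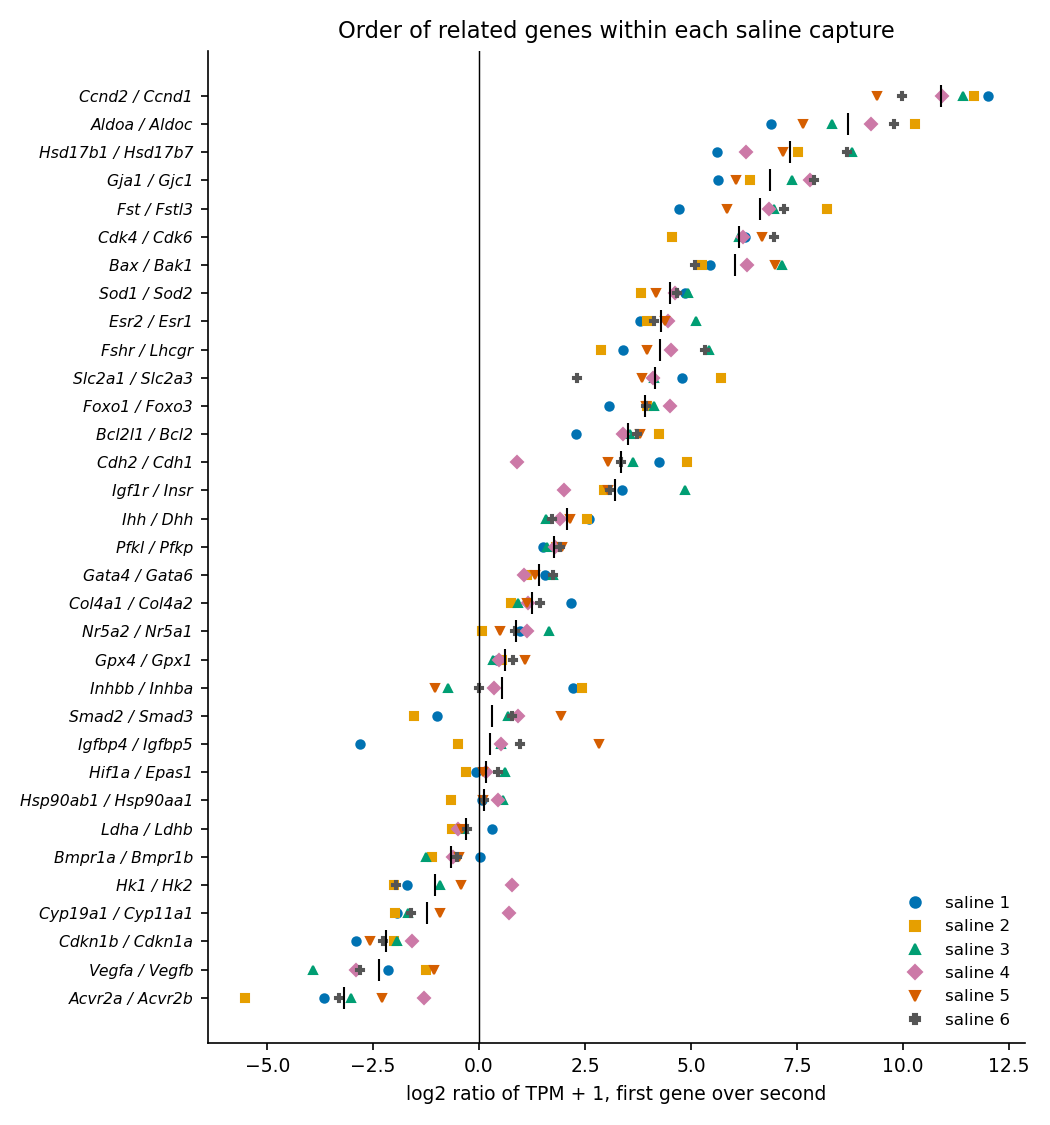
Log2 ratio of TPM + 1 (horizontal axis) for pairs of related genes, without Igf1 and Igf2, of which the latter had no read; 1 symbol per saline library and a black bar at the mean. Ccnd2 over Ccnd1 lies at 9.38 to 12.01, while Inhbb over Inhba crosses 0, from -1.04 to 2.43.

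The other 9 pairs did not pass. Inhbb led Inhba in 3 libraries and followed it in the other 3 (log2 ratio 0.54 ± 1.47, exact p = 0.4375, adjusted p = 0.479): Inhbb led in saline 1, saline 2 and saline 4. Per kilobase of the principal transcript Inhbb led by 2.42 on the log2 scale and the pair passed (adjusted p = 0.0391, exact permutation test), so the order of these subunits depends on the length used. Hif1a and Epas1, the oxygen-regulated alpha subunits, differed by 0.16 ± 0.33 (exact p = 0.3125), at 27.6 ± 4.99 and 24.9 ± 6.05 TPM. Hsp90ab1 and Hsp90aa1 differed by 0.11 ± 0.43 (exact p = 0.59375). Cyp11a1 led Cyp19a1 in 5 libraries, Ldhb led Ldha in 5, Hk2 led Hk1 in 5 and Bmpr1b led Bmpr1a in 5. Smad2 led Smad3 in 4 libraries and Igfbp4 led Igfbp5 in 4. A p that misses the threshold does not show equal levels: the log2 ratio of Igfbp4 over Igfbp5 ran from -2.81 in saline 1 to 2.84 in saline 5.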

How the data were processed

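The authors deposited 1 gene table per library with estimated counts (reads that Salmon assigned to a gene) and TPM, per the file headers; Salmon and GRCm38 come from the submitters' processing notes, and Salmon's version was not given in the sources used here. The 1548 rows with a transcript identifier in place of a gene symbol took 0.547% to 0.634% of reads and were left out. Counts were scaled to CPM by the total on symbol rows. Reads divided by deposited TPM give the effective length that TPM used: it was within 10 percent of the deposited effective length for 451 of 4056 genes at 50 CPM and more than 2 times as long for 3215 (Gapdh 1127 against 110 bases), so the deposited lengths were not used.

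Positions and transcripts came from GENCODE annotation of GRCm38, which held 34130 of the symbols (99.6% of reads). Copies were matched with blastn. Wide and steady need a mean of 50 CPM, and a lowest library under 3 reads counts as 3. The coefficient of variation came from edgeR 4.0.16 (R 4.3.3) on counts rounded to whole numbers, with TMM factors and the default filter and was tested on simulated data. Pairs were tested with pseudocount 1 and Benjamini-Hochberg adjustment at 0.05. Results for some genes are not reported here. The genes named were the 4 markers, the 20 highest by CPM, the 20 highest protein-coding genes by TPM (no ribosomal or mitochondrial ones), up to 4 of each list by CPM (all of an identity or marker list), the pairs, and the 12 widest and 12 steadiest genes, 258 in all. Other names (among them Nppc, Pgk1, Prdx2, Gpx3, Gclc, Vcan, Itga6, Bcl2l11, Rpl41, Scube1, Aff2, members listed at or near 0, and copies with their partners) were chosen after their values were seen. The list of 82 ribosomal genes holds symbols of Rpl or Rps with a number, without S6 kinases and pseudogenes; Rplp0, Rplp1 and a few other genes are counted as ribosomal only in the classes of the first 100 genes, so Rplp0 and Rplp1 are among the 20 named by TPM. The members and lists were chosen with earlier results of these data known. Alternatives were TMM and RLE factors, transcript rows included, thinning, other thresholds, TPM or reads per kilobase, other pseudocounts, and libraries left out.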

Additional observations from a re-analysis of the deposited data

Results flagged for a closer look

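Dixon's test was applied to 217 genes and list sums with a mean of 10 CPM or more. In 13 (5.99%), 1 library lay so far from the other 5 that its gap exceeded the critical value. The chance rate of about 1 in 20 holds for independent, normally distributed values not chosen by their spread. The genes examined included the widest and steadiest of these same libraries, and several oocyte genes peaked together. The share found therefore cannot be compared with that rate, and the 13 are listed as description only. Of these, 6 were highest in saline 4: Olfr624 at 653.2 CPM (2.931 to 89.41 in the others), Hddc3 at 358.9, Bcl2l10 at 274.1, Zp2 at 142.2, Zp1 at 84.74 and Bmp15 at 71.34 CPM. Zp1, Zp2 and Bmp15 are oocyte genes, and the oocyte list was also highest there; its part in the values of Olfr624 and Hddc3 was not tested.

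The 3 genes that stood out in saline 1 were Igf1r at 490.3 CPM (148.2 to 276.4 in the others), Igfbp5 at 227.5 (22.08 to 86.12) and Wt1 at 185.5 (5.857 to 72.99). Saline 2 stood out for the stromal gene Pdgfra, at 47.13 CPM against 0 to 8.956, and for the summed red cell genes, at 88.56 against 2.534 to 18.59. Gpx1, a glutathione peroxidase, was at 723.9 CPM in saline 3 and 361.9 to 496 in the others. The summed chaperone genes were at 3.075e+04 CPM in saline 6.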

How the results depend on the processing

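No paired analysis was possible because only the saline group was used. Leaving out 1 library gave 10167 to 10467 detected genes, 89 to 137 wide and 2401 to 2784 steady genes, a top-100 share of 26.0% to 27.8%, a median correlation of 0.888 to 0.910, a coefficient of variation of 0.290 to 0.333, 97 to 99 genes shared with the first 100, and 26 to 28 pairs with 1 leader. The lowest count of wide genes, 89, came without saline 2; without saline 2 and saline 4 it was 74. It was 31 at a mean of 100 CPM, 816 at 20 CPM and 285 by deposited TPM, against 137. Steady genes numbered 1314 among the fewer genes at 100 CPM, against 2263 of 4056 at 50 CPM. The top-100 share was 39.2% by TPM, and the coefficient of variation was 0.539 with no low-count filter. The other alternatives to these counts and shares stayed within 1.5 times the count or 1 SD of the value. Per kilobase of the principal transcript, 28 pairs passed. On that scale the log2 ratios of Smad2 over Smad3 (-1.11), Igfbp4 over Igfbp5 (-0.69) and Hif1a over Epas1 (-0.10) changed sign, and Smad2 and Smad3, Inhbb and Inhba (2.42) and Hsp90ab1 and Hsp90aa1 (1.56) newly passed. The mean CPM of the 258 named genes stayed within 1 SD in all 2580 alternative values. Where libraries were left out this was fixed in advance, because the SD came from the same 6 libraries. Only other scaling factors and thinning could have moved these means by more. The top-100 share has the same limit where libraries were left out. The counts of wide and steady genes have a related limit, because leaving out a library cannot raise a gene's ratio of highest to lowest. Rankings by TPM and per kilobase and list sums with TMM factors or without the highest member were chosen after seeing the data.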

Other observations

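Several imprinted genes, expressed from 1 parental copy, were well represented. Nnat, a small membrane protein gene, ran from 538 CPM in saline 1 through a median of 943 to 1635 in saline 5. Gnas, the stimulatory G protein alpha subunit used by the receptor for follicle-stimulating hormone, ran from 646 through 812 to 1080 CPM. Nap1l5 ran from 279 through 713 to 868 CPM, with saline 1 and saline 2 low. Of the 20 imprinted genes with a row, 15 reached 1 CPM in every library and 8 reached 10 TPM in every library. Over all symbol rows 28.8% and 14.7% did.

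Kctd14 was wide and divided the libraries: it was at 1409 and 1219 CPM in saline 1 and saline 2 and at 232 to 404 in the others. Tsc22d1, a leucine zipper gene, ran the other way, from 300 CPM in saline 1 to 1599 in saline 5. Lars2, a mitochondrial leucyl-tRNA synthetase, ran from 314 CPM in saline 3 to 1974 in saline 4. These genes were chosen after their values were seen.

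Reads were also listed at Y-linked rows, although the mice were female. Kdm5d ran from 2.76 through 6.91 to 18.5 CPM and Uty from 1.35 through 4.73 to 11.1, whereas Eif2s3y stayed at or below 0.487 CPM and Ddx3y had no read in any library. Both Kdm5d and Uty have relatives on the X chromosome, and whether reads were shared with these was not tested.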
